A study of Homo sapiens with 8 samples.

Results

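The genes described here repair broken or crosslinked DNA by homologous recombination, act in the Fanconi anaemia pathway, or signal DNA damage to the cell cycle. They were taken as the rows of the deposited expression table whose gene symbol equals 1 of 38 listed names, and 37 were found among the 18787 symbols of the table. CHEK1, the effector kinase of the ATR checkpoint, had no row and was not analysed here. RNA was sequenced from 2 established cell lines derived from human glioblastomas, U87 and T98, collected 72 h after an siRNA was transfected. The groups were T98 with LKB1 siRNA, T98 with control siRNA, U87 with LKB1 siRNA and U87 with control siRNA, with 2 libraries each and 8 in all. LKB1 is a kinase encoded by STK11 that activates AMPK and related kinases. The siRNAs were delivered by lipid transfection, and the labels give neither their number nor their sequences. Each line stands for a single tumour. The 2 libraries of a group may be technical duplicates, since the labels name no separate transfections, and the p-values then measure only the spread between these samples. The comparisons asked what LKB1 siRNA did to these genes in each line, whether the lines differed in that effect, and how the lines compared under control siRNA.

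In homologous recombination, nucleases cut a broken DNA end back to a single strand, BRCA1, PALB2 and BRCA2 prepare it to pair with an intact copy, and the joined molecules are later taken apart by helicases and nucleases. The Fanconi anaemia pathway answers DNA interstrand crosslinks: a core complex with the conjugating enzyme UBE2T attaches ubiquitin to the FANCD2 and FANCI pair, and USP1 removes it. ATM, with its effector CHEK2, responds to double-strand breaks, and ATR, with ATRIP and TOPBP1, responds to exposed single-stranded DNA. Many of these genes are transcribed mainly in S and G2 phase, when a sister chromatid is present as a template, and in glioblastoma the pathways are studied for their part in repairing radiation and temozolomide damage.

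Values are normalised read counts, made by the authors by moving the reads of each library to a common library size. The reads recovered from them came to 25234334 to 38031734 per library. One library of every group was sequenced on lane 2, the other on lane 4 in T98 and on lane 5 in U87, and the lane 2 value is given first throughout. The targeted gene STK11 (NM_000455, chr19:1205798-1228434, hg19) had 339.9 and 588 in LKB1 siRNA libraries of T98, against 1999 and 2041 in control libraries, and 361 and 385 in LKB1 siRNA libraries of U87, against 2445 and 2041 in control libraries. Its log2 fold change was -2.17 in T98 (SE 0.20, adjusted p = 0.00254) and -2.58 in U87 (SE 0.20, adjusted p = 0.00195). Alternative fits listed at the end gave -2.55 to -1.79 in T98 and -2.76 to -2.40 in U87. The T98 call of STK11 did not hold with T98 fitted alone or without a term for the lane, where 0 of all genes passed as lower. Of the glial markers, VIM was high in every library, and NES reached 1361 to 2073 in U87 and 16.2 to 123 in T98. GFAP stayed between 1.85 and 50.7, and SOX2 and S100B did not exceed 3.48 in any library.

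Knockdown effects were fitted over 14282 genes with limma-trend on log2 of the value plus 1, with a term for the lane within each line. The adjusted p is that of Benjamini and Hochberg over all these genes, two-sided, with a threshold of 0.05. All 37 genes found passed the filter on low values (at least 10 in at least 2 libraries). The listing of single values keeps to the genes with the smallest p in each comparison, and the others are given by counts and ranges.

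Promoter sequence is shown for the members whose window held a site of the E2F type, as E2F factors drive S-phase transcription. The motifs were chosen with earlier results of these data known. A part of E2F factors in the U87 values was not tested. The letters TTTCCCGC, TTTGGCGC, TTTCGCGC and TTTGCCGC were searched on both strands, from 250 bases before to 50 bases after the transcript start in RefSeq (GRCh38.p14), in 33 members with an entry. A gene counted as holding a match when any of its listed starts held a site, and 10 of the 33 members had more than 1 start. A match was present in 7 of 33 members (21.2%), and in 658 of 10500 tested genes with an entry (6.27%). Counted by window, it was present in 16.3% of the members' windows and in 4.54% of those of tested genes. Of the 16 members with an entry that were lower in U87 after LKB1 siRNA, 6 held a match: EXO1, FANCA, FANCD2, RMI1, TOPBP1 and XRCC2. FANCC, which did not pass the test, held 2 matches. The match of FANCA lies 172 bases before the start. The other windows are printed 5′ to 3′ on the gene's strand, from 50 bases before to 30 bases after the start, with the match in capitals. FANCC's second match lies outside the printed stretch.
EXO1 (chr1:241848154-241848233, plus strand): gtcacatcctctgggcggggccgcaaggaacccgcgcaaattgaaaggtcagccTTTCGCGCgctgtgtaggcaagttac
FANCD2 (chr3:10026387-10026466, plus strand): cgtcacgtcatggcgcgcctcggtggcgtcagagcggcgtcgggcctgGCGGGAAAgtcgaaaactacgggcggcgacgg
RMI1 (chr9:83980755-83980834, plus strand): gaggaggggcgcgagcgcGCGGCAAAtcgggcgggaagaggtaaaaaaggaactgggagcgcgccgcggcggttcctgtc
TOPBP1 (chr3:133661912-133661991, minus strand): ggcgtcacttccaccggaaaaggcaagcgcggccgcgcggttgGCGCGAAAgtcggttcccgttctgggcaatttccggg
XRCC2 (chr7:152676112-152676191, minus strand): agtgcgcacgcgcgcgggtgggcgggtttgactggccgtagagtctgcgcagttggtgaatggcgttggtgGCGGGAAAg
FANCC (chr9:95317680-95317759, minus strand): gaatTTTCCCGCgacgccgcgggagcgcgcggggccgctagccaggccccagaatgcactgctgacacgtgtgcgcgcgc
A match describes these letters only, and binding was not measured.

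In U87, 19 of the 37 repair genes were lower after LKB1 siRNA and 0 were higher. Over all genes tested, 5.91% were lower and 5.29% were higher. The median log2 fold change of the 37 genes was -0.68, against 0.00 over all genes, and 33 of them had a negative value. The genes called lower reached from the exonuclease EXO1 and the recombination factor RAD54L to the ubiquitinated pair FANCD2 and FANCI. ATM, ATR, RAD50, NBN and MUS81 had log2 fold changes between -0.06 and 0.18 and did not pass. In each of these genes the within-lane values had opposite signs. Both LKB1 siRNA libraries lay below both control libraries in 26 of 37 genes, against 20.2% of all genes, and above them in 0, against 17.6%. Within a lane, the median was -0.65 on lane 2, with 32 negative values, and -0.74 on lane 5, with 35 negative values. These calls depend on the lane term and on every U87 library. Without the term 0 of the 37 passed, and 8 of all 14282 genes. At an unadjusted p under 0.05 that limma-trend fit held 20 of the 37 and 1268 of all genes. Without any 1 U87 library the calls ended, for the 37 and for all genes. Leaving out a U87 library leaves 1 sample in its group, assumed to vary like the T98 groups. Median log2 fold changes stayed between -0.74 and -0.65 in those fits.

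**Figure D1:**
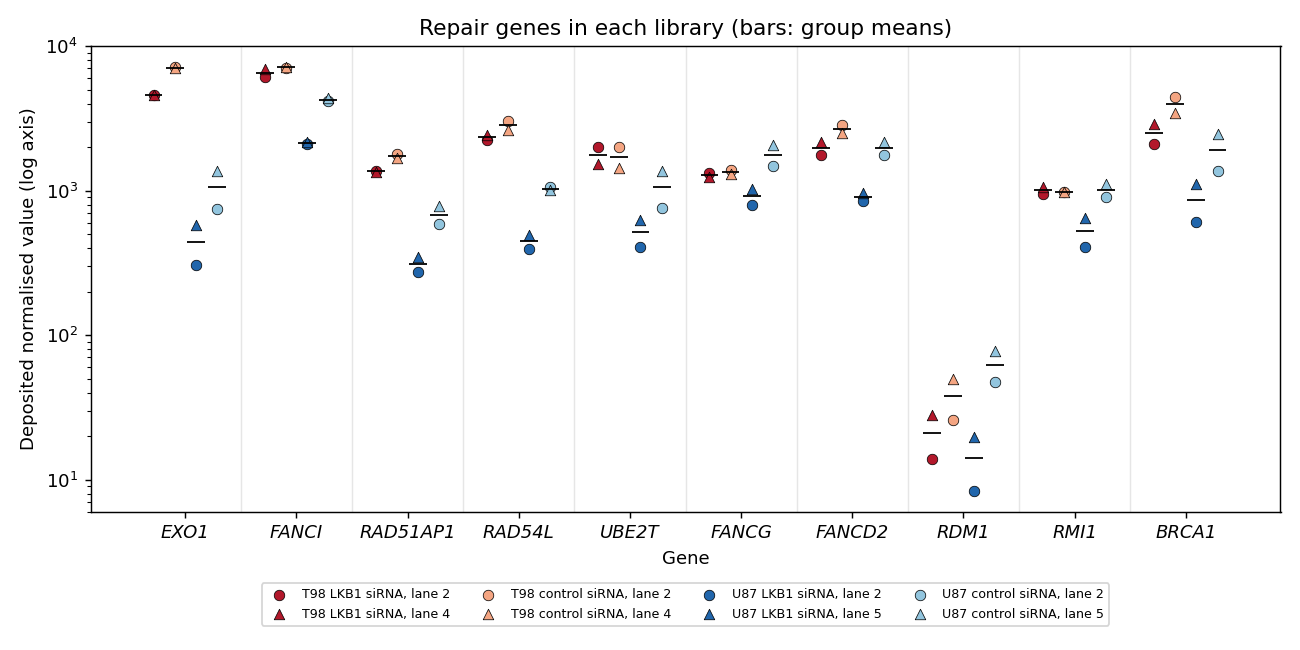
Normalised value (log axis) of the 10 members with the smallest p in the U87 knockdown, in each of the 8 libraries. Circles are lane 2 libraries, triangles the other lane, and short bars group means. In U87 (blue), both LKB1 siRNA libraries of FANCI (2109 and 2172) lie below both control libraries (4149 and 4372).

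Among the genes of end resection and break sensing, EXO1 (chr1:242011493-242053241, hg19), a 5′ to 3′ exonuclease that lengthens resected ends, had 303 and 576 in LKB1 siRNA libraries of U87, against 745 and 1375 in control libraries. Both LKB1 siRNA libraries lay below both controls, although each group spread widely between its lanes. EXO1 fell by 1.27 on the log2 scale (2.42-fold lower, SE 0.12, adjusted p = 0.00196), with -1.30 on lane 2 and -1.25 on lane 5. RBBP8 (chr18:20513295-20606449), also called CtIP, starts resection together with the MRE11, RAD50 and NBN complex. It had 1756 and 1278 in LKB1 siRNA libraries of U87, against 3606 and 2212 in control libraries, without overlap (log2 fold change -0.91, SE 0.15, adjusted p = 0.0113). The remaining 4 genes of this role did not pass. CHEK2 had -0.38 on the log2 scale (SE 0.14, adjusted p = 0.126), and its libraries did not overlap either, at 535 and 485 under LKB1 siRNA and 729 and 605 under control siRNA. RAD50 had 0.16, NBN -0.02 and ATM 0.18 on the same scale. On lanes 2 and 5, RAD50 had 0.35 and -0.02, NBN 0.03 and -0.06, and ATM 0.43 and -0.06.

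Of the 11 genes that prepare or assist strand exchange, 6 passed and all 6 were lower. RAD51AP1 (chr12:4647950-4669213), which helps DNA strands pair, had 272 and 349 in LKB1 siRNA libraries of U87, against 584 and 776 in control libraries. RAD54L (chr1:46713367-46744145), a DNA translocase that assists strand exchange, had 397 and 491 in LKB1 siRNA libraries of U87, against 1050.5 and 1010.0 in control libraries. In both genes every LKB1 siRNA library was well below every control library. RAD51AP1 was 2.18-fold lower (log2 fold change -1.12, SE 0.13, adjusted p = 0.00352), and RAD54L was 2.33-fold lower (log2 fold change -1.22, SE 0.15, adjusted p = 0.00392). RAD54L overlaps LRRC41 on the opposite strand, and the library kit keeps no strand, so reads of the shared stretch cannot be assigned. BRCA1 (chr17:41196312-41277500), a ubiquitin ligase subunit that directs ends to recombination, had 610.4 and 1103 in LKB1 siRNA libraries of U87, against 1356 and 2442 in control libraries. Its lanes also stood apart, and the within-lane effects were -1.15 and -1.15 (log2 fold change -1.15, SE 0.19, adjusted p = 0.0105). RDM1, a RAD52 motif protein, showed the lowest log2 fold change of the 37, -2.15 (SE 0.31, adjusted p = 0.00644), from low values of 8.40 and 19.7 under LKB1 siRNA and 47.6 and 77.4 under control siRNA. Named pseudogenes of RDM1 and RAD51AP1 exist, so their counts may share reads with copies.

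RAD54B, the second translocase, was lower with a log2 fold change of -0.64 (adjusted p = 0.0217). XRCC2, which assists strand exchange, was lower by the narrowest margin, with -0.66 (adjusted p = 0.0496), and missed the threshold with no filter on low values or with another scaling. BARD1, the partner of BRCA1, stood just outside at -0.72 (adjusted p = 0.0531). RAD51C and XRCC3, which form a complex together, had -0.38 and -0.36 and did not pass. BRCA2, which acts after PALB2, had 337 and 345 in LKB1 siRNA libraries of U87, against 385 and 679 in control libraries, with -0.19 on lane 2 and -0.98 on lane 5 and an adjusted p of 0.223. PALB2, the bridge between BRCA1 and BRCA2, had 0.11 (adjusted p = 0.719), and its 2 groups overlapped. XRCC3 overlaps KLC1 on the opposite strand and RAD54B overlaps FSBP on its own strand, so their counts are limited in the same way.

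**Figure D2:**
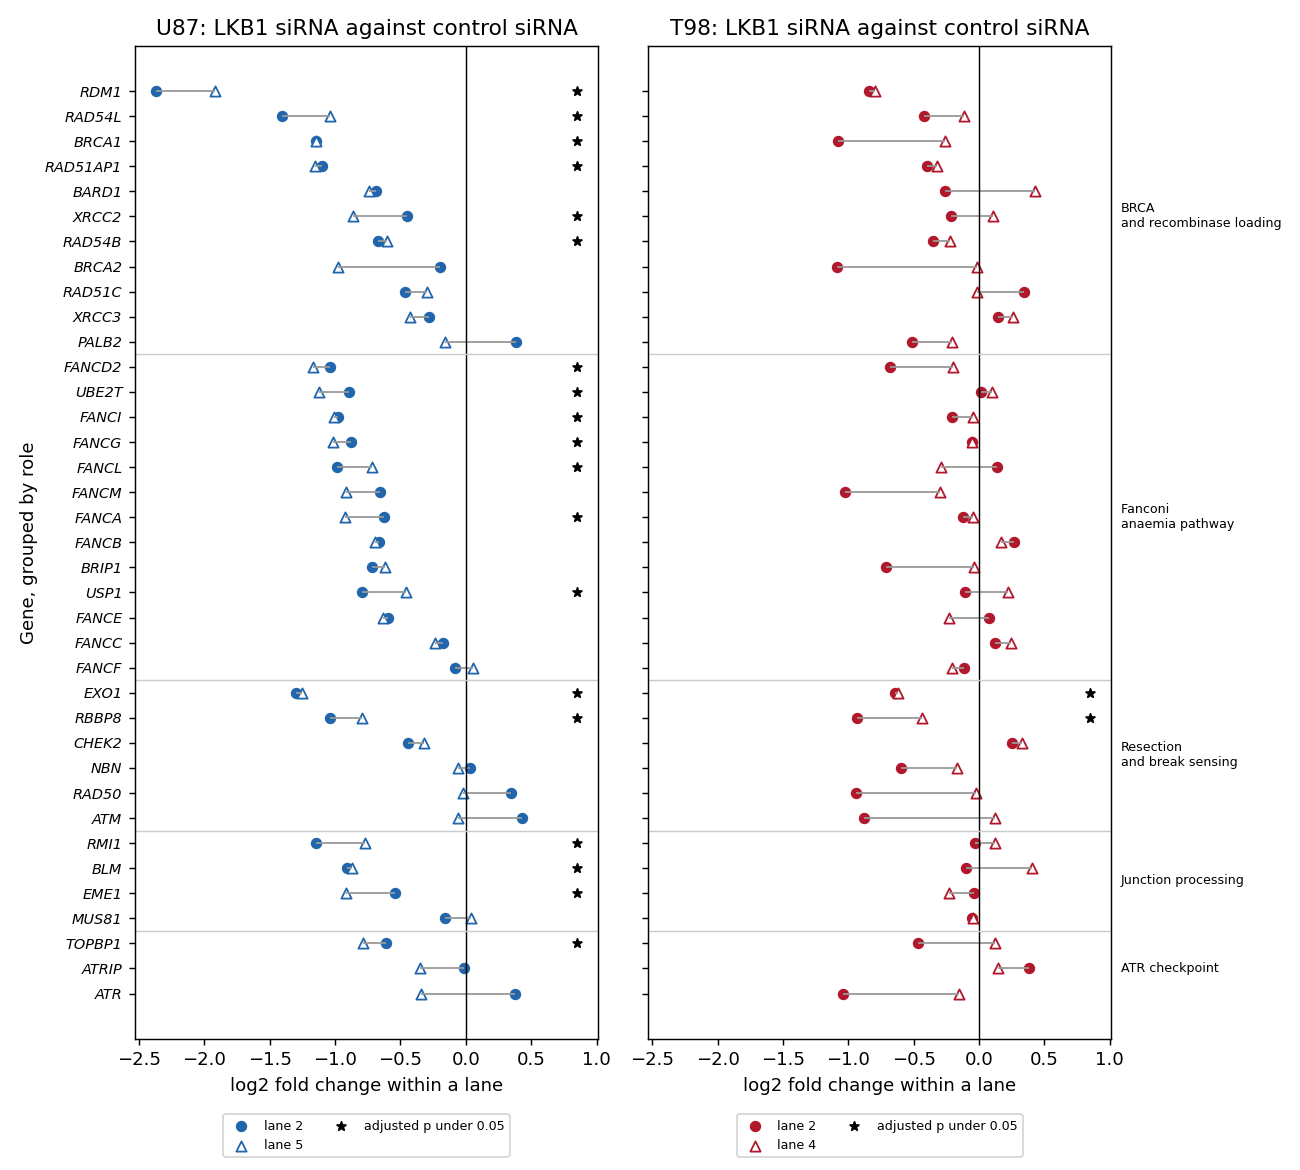
Log2 fold change of LKB1 siRNA over control siRNA within each lane for the 37 genes, grouped by role, in U87 (left) and T98 (right). Filled circles are lane 2 and open triangles lane 5 (U87) or lane 4 (T98), joined by a line, and a star marks an adjusted p under 0.05. Stars stand at 19 genes in U87 and at EXO1 and RBBP8 in T98.

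The Fanconi anaemia genes gave 7 lower of 13, and all 13 log2 fold changes were negative. FANCI (chr15:89787194-89860362), which is ubiquitinated together with FANCD2, had 2109 and 2172 in LKB1 siRNA libraries of U87, against 4149 and 4372 in control libraries. FANCD2 (chr3:10068113-10143614) had 849.9 and 959 in LKB1 siRNA libraries of U87, against 1749 and 2159 in control libraries. Both genes of the pair were lower under LKB1 siRNA on both lanes, with no overlap. FANCI was 1.99-fold lower (log2 fold change -0.99, SE 0.11, adjusted p = 0.00352) and FANCD2 2.15-fold lower (log2 fold change -1.11, SE 0.15, adjusted p = 0.00503). UBE2T (chr1:202300785-202311094), the conjugating enzyme of the pathway, had 407 and 627 in LKB1 siRNA libraries of U87, against 757 and 1365 in control libraries (log2 fold change -1.01, SE 0.13, adjusted p = 0.00474). FANCG (chr9:35073835-35080013), a subunit of the core complex, had 799.6 and 1020.1 in LKB1 siRNA libraries of U87, against 1468 and 2060.2 in control libraries (log2 fold change -0.94, SE 0.13, adjusted p = 0.00476). Neither gene's groups overlapped. FANCL, the ubiquitin ligase subunit, had a log2 fold change of -0.85 (adjusted p = 0.0162), but its lane 5 library under LKB1 siRNA (814) lay above its lane 2 control library (799).

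The core subunit FANCA had -0.77 (adjusted p = 0.0117) and the deubiquitinase USP1 -0.63 (adjusted p = 0.0305). Transcripts of the conjugating enzyme UBE2T and of USP1, which removes the ubiquitin mark, were thus both lower. FANCB (-0.68, adjusted p = 0.0543), FANCM (-0.78, adjusted p = 0.057), BRIP1 (-0.67, adjusted p = 0.0585) and FANCE (-0.61, adjusted p = 0.0794) had log2 fold changes of a like size and did not pass. FANCM is a translocase that recognises crosslinked DNA, and BRIP1 a helicase bound to BRCA1. FANCC and FANCF, further core subunits, had -0.20 and -0.02 with adjusted p of 0.381 and 0.957. Within the core complex the values ranged from -0.94 for FANCG to -0.02 for FANCF. FANCA, FANCD2, FANCI and FANCL each overlap a gene on the opposite strand, which limits their counts as for RAD54L, and FANCD2, like RBBP8 and CHEK2, has a named pseudogene.

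Of the 4 genes that process joined molecules, 3 were lower. RMI1 (chr9:86595637-86618987), which holds the BLM helicase and a topoisomerase together, had 406 and 648 in LKB1 siRNA libraries of U87, against 898 and 1104 in control libraries (log2 fold change -0.96, SE 0.15, adjusted p = 0.00873). BLM had 218 and 311 in LKB1 siRNA libraries of U87, against 409.7 and 571 in control libraries (log2 fold change -0.89, SE 0.16, adjusted p = 0.0151). Neither gene showed overlap. EME1, the partner of the MUS81 nuclease, had a log2 fold change of -0.73 (adjusted p = 0.0194), and overlaps LRRC59 on the opposite strand. MUS81 itself had 857 and 1002 in LKB1 siRNA libraries of U87, against 955 and 974 in control libraries, which overlapped, with -0.06 (SE 0.13, adjusted p = 0.819). In the ATR checkpoint, TOPBP1, the activator of ATR, had 1779 and 1777 in LKB1 siRNA libraries of U87, against 2715 and 3061 in control libraries (log2 fold change -0.70, SE 0.16, adjusted p = 0.0316). ATR had 0.02, from 0.38 on lane 2 and -0.35 on lane 5, and its partner ATRIP -0.18, and neither passed.

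In T98, 2 of the 37 genes were lower after LKB1 siRNA and 0 were higher, while 7.33% of all genes were lower and 8.48% higher. The share of members called was thus near or below that of all genes. The median log2 fold change was -0.14, against 0.02 over all genes. It was -0.22 on lane 2 and -0.05 on lane 4, which are also the values without a lane 4 or a lane 2 library of T98. EXO1 had 4579 and 4572 in LKB1 siRNA libraries of T98, against 7145 and 7033 in control libraries (log2 fold change -0.63, SE 0.12, adjusted p = 0.0163). RBBP8 had 1477 and 1128 in LKB1 siRNA libraries of T98, against 2823 and 1527 in control libraries (log2 fold change -0.69, SE 0.15, adjusted p = 0.0283). Neither gene's groups overlapped, and both genes were also called lower in U87. The calls ended without either lane 2 library of T98, without any 1 U87 library and without the lane term. Over all genes the calls also ended without any 1 U87 library, and most ended without a lane 2 library of T98. Without the lane term 0 of 37 were called, and 4 of all 14282 genes. At an unadjusted p under 0.05 that limma-trend fit held 0 of 37 and 1502 of all genes. The fit reported held 9 of 37 and 4930 of all genes. Both LKB1 siRNA libraries lay below both controls in 14 of 37 genes and above them in 2 (FANCB and FANCC), and each direction held 20.5% of all genes.

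The next genes by p did not pass. BRCA1 had 2111 and 2889.8 in LKB1 siRNA libraries of T98, against 4461 and 3462 in control libraries (log2 fold change -0.67, SE 0.19, adjusted p = 0.0519). FANCM had 374 and 438 in LKB1 siRNA libraries of T98, against 764 and 538 in control libraries (log2 fold change -0.66, SE 0.21, adjusted p = 0.0731). FANCD2 had 1762 and 2180.4 in LKB1 siRNA libraries of T98, against 2827 and 2509 in control libraries (log2 fold change -0.44, SE 0.15, adjusted p = 0.0809). In these 3 genes no libraries overlapped, and the lane 2 pair lay farther apart than the lane 4 pair. NBN had 2007 and 1480.2 in LKB1 siRNA libraries of T98, against 3038 and 1663 in control libraries (log2 fold change -0.38, SE 0.14, adjusted p = 0.102), and its groups overlapped.

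The T98 values stood apart between lanes, and transcript length moved with them. On lane 2 the 12 members of 5 kb or longer had a median log2 fold change of -0.79, with 11 negative, and the 25 shorter members had -0.10. On lane 4 the values were -0.04 for the long and -0.05 for the short members. Over all genes, the 3325 transcripts of 5 kb or longer had a median of -0.26 on lane 2 and 0.00 on lane 4. Across the 37 genes, which share their libraries, the Spearman correlation of length and effect was -0.643 on T98 lane 2 and 0.024 on T98 lane 4, against 0.225 on U87 lane 2 and 0.116 on U87 lane 5. ATM, the longest transcript of the list, had -0.88 on lane 2 and 0.12 on lane 4, BRCA2 had -1.09 and -0.02, and ATR -1.04 and -0.15. EXO1, of 3.48 kb, had -0.64 and -0.62. Without either lane 4 library of T98, 11 members were called lower, against 11.9% and 12.0% of all genes, 9 of them besides EXO1 and RBBP8: ATM, ATR, BRCA1, BRCA2, BRIP1, FANCD2, FANCM, NBN and RAD50. With the length trend of each library removed, 4 were lower, EXO1, RBBP8, BRCA1 and RAD51AP1, against 10.2% of all genes, and the U87 count was 24, against 9.12%. The part of transcript length or RNA quality in the lane 2 values was not tested further.

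**Figure D3:**
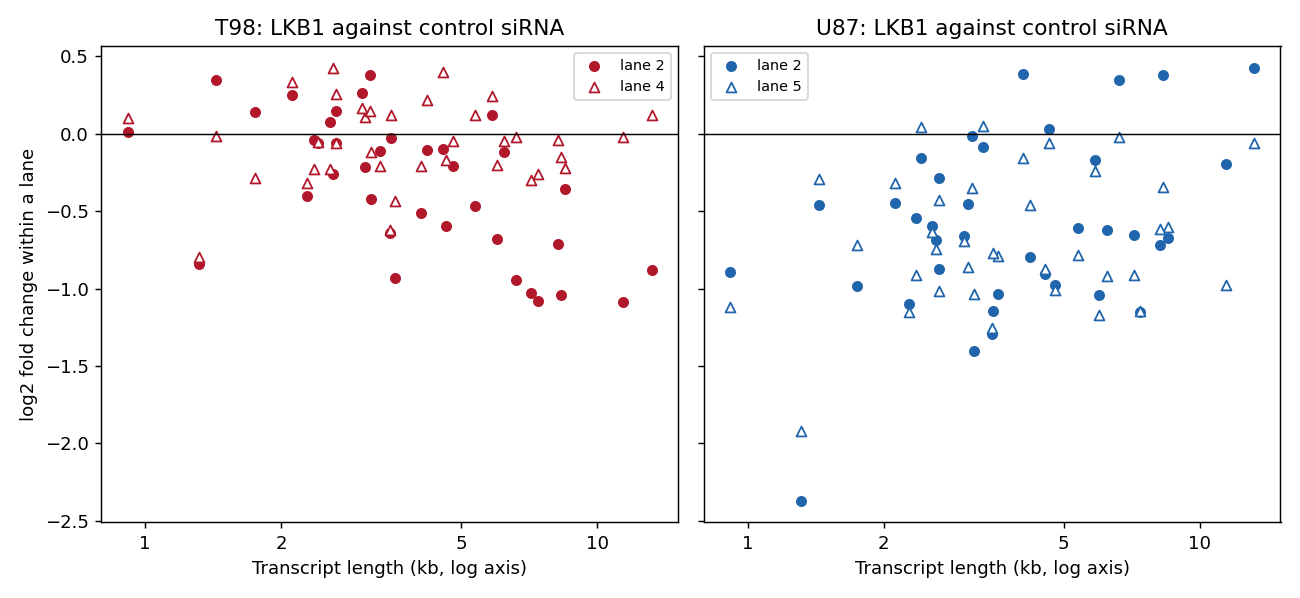
Log2 fold change within a lane against transcript length (kb, log axis) for the 37 genes, in T98 (left) and U87 (right). Filled circles are lane 2 and open triangles lane 4 (T98) or lane 5 (U87). In T98 the lane 2 points of 5 kb or longer have a median of -0.79 and the lane 4 points -0.04.

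The difference between the lines, the T98 effect minus the U87 effect, was positive in 31 of 37 genes, with a median of 0.56 on the log2 scale against 0.04 over all genes. No member passed (0 of 37, limma-trend with the lane term), while 21 had an unadjusted p under 0.05. Among all genes, 0.371% were called higher and 0.105% lower (0.476% in all), and 2110 of 14282 had an unadjusted p under 0.05. The 6 genes with the smallest p were led in size by UBE2T at 1.06 (SE 0.19, adjusted p = 0.0696), BLM at 1.04 (SE 0.23, adjusted p = 0.111) and RMI1 at 1.00 (SE 0.21, adjusted p = 0.0992). RAD54L, FANCG and FANCI followed with 0.95, 0.89 and 0.86 and adjusted p of 0.111, 0.0878 and 0.0777. UBE2T had 2004 and 1537 in LKB1 siRNA libraries of T98, against 1989 and 1435 in control libraries. In the same line, FANCG had 1330.1 and 1241 under LKB1 siRNA, against 1384 and 1291 under control siRNA, and RMI1 had 952 and 1064 under LKB1 siRNA, against 971 and 978 under control siRNA. The T98 groups of these 3 genes overlapped. BLM in T98 had 1477 and 1392 under LKB1 siRNA and 1581 and 1054 under control siRNA, which also overlapped. That 19 genes passed in U87 and 2 in T98 therefore does not show that the lines differ gene by gene. With the length trend removed, 6 passed as higher (BLM, FANCA, FANCD2, FANCG, FANCI and RMI1), and 1.51% of all genes did.

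Under control siRNA, 15 of the 37 genes were higher in T98 than in U87 and 0 were lower, in a fit without a lane term because the second lane differs between the lines. The same control libraries serve in the knockdown comparisons. Over all genes 18.3% were higher and 19.5% lower, and the median of the 37 genes was 0.61 against -0.01. The largest difference was in EXO1, with 7145 and 7033 in T98 control libraries, against 745 and 1375 in U87 control libraries (log2 2.81, SE 0.37, adjusted p = 0.00114). FANCE, a core subunit that binds FANCD2, had 461 and 497 in T98, against 83.5 and 141 in U87 (log2 2.13, SE 0.38, adjusted p = 0.00464). BARD1 had 1283 and 885 in T98, against 279 and 348 in U87 (log2 1.77, SE 0.27, adjusted p = 0.00243). These genes stood several times higher in T98, and none of their libraries overlapped.

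RAD54L had 3012 and 2634 in T98, against 1050.5 and 1010.0 in U87 (log2 1.45, SE 0.20, adjusted p = 0.00131). RAD51AP1 had 1800.4 and 1685 in T98, against 584 and 776 in U87 (log2 1.37, SE 0.23, adjusted p = 0.00365), and USP1 had 6395 and 4247 in T98, against 2451 and 2371 in U87 (log2 1.11, SE 0.24, adjusted p = 0.00968). The other 9 called genes were ATM, BLM, BRCA2, BRIP1, FANCI, FANCM, TOPBP1, XRCC2 and XRCC3, with log2 differences between 0.60 and 1.41. BRCA1 was at 1.11 and missed the threshold (adjusted p = 0.0529). FANCG (-0.38), RBBP8 (-0.44), RAD50 (-0.45), RDM1 (-0.75) and RMI1 (-0.03) had negative values that did not pass. Both T98 libraries lay above both U87 libraries in 28 of 37 genes and below them in 2 (FANCG and RAD50), against 35.7% and 35.9% of all genes. Without the lane 2 control library of T98 5 of the 37 passed as higher, against 10.3% of all genes, and without that of U87 6 passed, against 10.9%. A fit with the lane term called 25, against 30.7% of all genes.

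**Figure D4:**
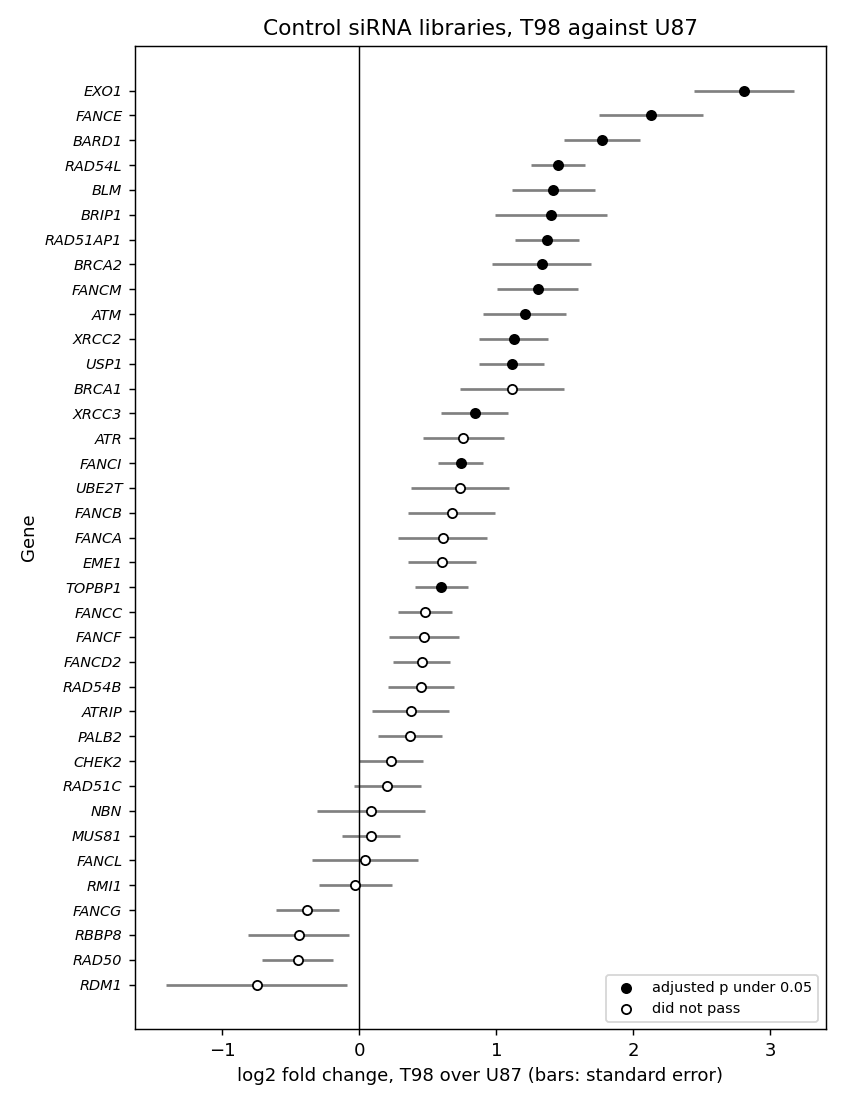
Log2 fold change of T98 over U87 in the control siRNA libraries for the 37 genes, with the standard error as a bar. Filled points have an adjusted p under 0.05. EXO1 stands highest at 2.81 and 15 of 37 points are filled.

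Per kilobase of transcript, the mean level under control siRNA was highest for EXO1 in T98, at 2038 normalised reads per kb, followed by UBE2T at 1871, FANCI at 1484 and USP1 at 1265. In U87 the order began with UBE2T at 1159.7, FANCI at 890.0, RBBP8 at 814 and FANCG at 667 per kb, and EXO1 was at 305. The lowest levels in T98 were those of RDM1, FANCB and FANCM, at 28.6, 87.3 and 91.1 per kb. In U87 they were FANCM, FANCE and BRCA2, at 36.6, 43.8 and 46.6 per kb. The crosslink enzymes UBE2T and USP1 and their substrate FANCI were thus among the most abundant of these transcripts, while BRCA2 was among the least.

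Other genes of the same pathways were read from lists of known members, beside the 5.91% of all genes called lower in U87. In U87, 7 of 20 tested further recombination genes were lower. RMI2, a partner of RMI1, had -1.18 (adjusted p = 0.0126), and RPA3, a subunit of the single-strand binding complex, -0.79 (adjusted p = 0.0129). Of further crosslink repair genes, 3 of 13 were lower, the nucleases DCLRE1A (-0.95) and DCLRE1B (-0.51) and C19orf40 (-0.93), a core complex associate also called FAAP24. Among checkpoint and damage signalling genes, 9 of 23 were lower, with the phosphatases CDC25C and CDC25A at -1.64 and -1.42 and the histone H2AFX at -1.20. The comparison group of end joining genes, which repair breaks without a template, had 2 of 10 lower, PARP1 (-0.83) and XRCC1 (-0.60), both of which also act on single-strand breaks. None of these lists held a gene called higher in U87.

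In T98 the same lists gave 1 higher and 1 lower of 20 recombination genes, 2 higher of 13 crosslink repair genes, 1 lower of 23 checkpoint genes and 1 lower of 10 end joining genes. Over all genes 8.48% were higher and 7.33% lower. POLQ, a polymerase of a backup joining route, was lower (-1.03, adjusted p = 0.0344), as were RAD17 (-0.76, adjusted p = 0.0195), which loads a checkpoint clamp, and XRCC1 (-0.53, adjusted p = 0.0324). SLX1A, a structure-specific nuclease subunit with a near-identical copy SLX1B that makes its count uncertain, was higher (0.50, adjusted p = 0.0403), as were the Fanconi core associates STRA13 (0.63, adjusted p = 0.036) and C1orf86 (0.65, adjusted p = 0.0435). POLQ and XRCC1 were called lower in both lines. In T98, POLQ, a transcript of 8810 bases, had -1.61 on lane 2 and -0.44 on lane 4. With T98 fitted alone 0 of all 14282 genes passed, so none of these T98 calls held there.

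Genes of DNA replication and cell division moved alongside the repair genes. In U87, 14 of 16 proliferation markers were lower, with a median log2 fold change of -1.20, and in T98 1 of 16 was lower, TYMS (-0.51), with a median of -0.02. RRM2, a ribonucleotide reductase subunit, had 3362 and 4397 in LKB1 siRNA libraries of U87, against 9776 and 11205 in control libraries (log2 fold change -1.44, SE 0.12, adjusted p = 0.00195). The mitotic cyclin CCNB1 had -1.43 and the transcription factor E2F1 -1.69 in U87 (adjusted p = 0.00195 and 0.00195). The T98 effect minus the U87 effect passed for 7 of the 16 markers, all positive. Each of the 7 passed in 6 of 14 alternatives, and none did without the lane term, without the filter on low values, without any 1 U87 library or without either lane 2 library of T98. Of 5 tested markers of other cell types, the keratin KRT18 was higher in U87 after LKB1 siRNA (0.85, adjusted p = 0.0497). It had 71.1 and 43.8 in LKB1 siRNA libraries of U87, against 29.6 and 31.5 in control libraries. Between the lines under control siRNA, KRT18 was far higher in T98, with log2 differences of 6.12 to 6.42 over 14 alternatives. In T98 CD68 (-0.63, adjusted p = 0.0287) and MBP (-1.31, adjusted p = 0.0491) were lower, and the glial marker NES was higher (1.01, adjusted p = 0.018). MBP was low and did not reach a value of 50 in 2 libraries. None of these T98 calls held with T98 fitted alone, where 0 of all 14282 genes passed. The leukocyte marker PTPRC did not exceed 9.63 and the neuronal marker RBFOX3 7.64 in any library. In bulk RNA, fewer cells in S and G2 phase and less of these transcripts per cell cannot be told apart. The part of the share of cycling cells in the values of the repair genes was not tested.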

How the data were processed

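The libraries were made from total RNA with TruSeq kit V2, per the labels' protocols, which marks no strand. Alignment used TopHat2 2.0.8b and the genome was hg19 (GRCh37), per the submitters' processing notes, which also name edgeR. They name no read counter. The authors deposited a normalised signal for each of 18815 transcript rows (18787 symbols) in each library. The authors' deposited values equal edgeR pseudo-counts at a common dispersion of 0.06803, and inverting them gave whole reads, within 0.05 read, for 100% of values. The signal was kept as the unit, and the recovered reads served only for depth (25234334 to 38031734 per library). Where a symbol had several transcripts, the row with the highest mean was kept.

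Genes with a value of at least 10 in at least 2 libraries (14282) were tested in R 4.3.3 by limma-trend (limma 3.58.1). The test took the log2 of each value after adding a pseudocount of 1, over all 8 libraries, two-sided, with Benjamini-Hochberg adjustment and a threshold of 0.05. A fold change on this scale understates the change of low genes. Knockdown effects and their difference had a term for the lane within each line, which left 2 residual degrees of freedom. The lane is named in the columns of the deposited table and pairs the libraries: the difference between lanes correlated at 0.72 between the T98 groups and at 0.81 between the U87 groups over genes, and at 0.12 to 0.18 between lines. The comparison of the lines had no lane term and 4 residual degrees of freedom. The procedure was tested on simulated data with normal errors of equal spread in both lines. That run cannot show how the calls behave where the lines differ in spread or depend on single libraries.

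The members, lists, motifs and tests were chosen with earlier results of these data known. Any member may be named. Library values are given for the targeted gene, for the 10 members with the smallest p in the U87 knockdown and for the 6 with the smallest p in T98, in the difference and between the lines, and for further members as examples. Other lists name up to 3 genes by p in U87 and up to 2 in T98. Alternatives were another pseudocount (4), no filter, a filter of 50, another scaling, no lane term, 1 line alone, leaving out each library, and removal of the transcript length trend, the last chosen after seeing the data. Promoters came from RefSeq (GRCh38.p14), and 33 of 37 members matched by symbol. NBN, RAD54B, FANCI and RDM1 had no entry used here. Of the other lists, 1 gene that met the naming rule is not reported here.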

Additional observations from a re-analysis of the deposited data

Results flagged for a closer look

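The difference between the lines passed the threshold for genes outside the list that were described beside it, each with a fall in U87 and a smaller effect in T98 (limma-trend with the lane term, tested as the difference of the effects). For the transcription factor E2F1 the T98 effect exceeded the U87 effect by 1.73 on the log2 scale (SE 0.20, adjusted p = 0.0349), with 3848 and 3241 in LKB1 siRNA libraries of T98, against 3530.5 and 3329 in control libraries, and 1180.0 and 1426 in LKB1 siRNA libraries of U87, against 4404 and 3964. RRM2 differed by 1.41 (adjusted p = 0.0349) and CCNB1 by 1.34 (adjusted p = 0.0383). H2AFX, a histone variant phosphorylated at breaks, differed by 1.58 (adjusted p = 0.0439), with effects of 0.38 in T98 and -1.20 in U87. No gene of the 37 was among those past the threshold for this difference, and leaving out any 1 U87 library, the lane term or the filter on low values ended all calls of it. Without either lane 2 library of T98 the 4 genes did not pass either, and 3 of all genes did, against 68. Over 14 alternatives the log2 difference lay between 1.52 and 1.94 for E2F1, 1.32 and 1.51 for RRM2, 1.24 and 1.44 for CCNB1 and 1.33 and 1.83 for H2AFX, and each passed in 6, with adjusted p of 0.0133 to 1.0 over the 4 genes.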

How the results depend on the processing

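Each value was recomputed with a pseudocount of 4, no filter, a minimum value of 50, another scaling, other lane settings, 1 line alone, each library left out, and the transcript length trend removed, the last chosen after seeing the data. The planned count-based alternatives in edgeR and DESeq2 were not run. The deposited values are not counts, and the whole reads recovered from them were used only for depth. For the 37 members, STK11 and the other lists, 6439 of 7466 values by gene and alternative kept their direction and their side of the threshold, 557 lost it, 192 gained it and 278 changed sign without a call in either fit. None with a call changed sign. Without the replicate block, that is without the lane term, 0 members were lower in U87 and 0 in T98. Over all genes, that fit called 8 in U87 and 4 in T98, against 1599 and 2258. With the replicate block and T98 alone 0 were lower in T98. The replicate block raised the count higher in T98 than in U87 under control siRNA to 25. Removal of the length trend gave 4 lower members in T98 and 6 with a positive difference between the lines. With a library left out, the members lower in U87 numbered 0 to 23 and their median log2 fold change lay between -0.74 and -0.65. The members lower in T98 then numbered 0 to 11, and those higher in T98 than in U87 numbered 5 to 16. In the fits with the lane term each line holds 1 residual degree of freedom, so that leaving out a library takes the spread from the other line alone. The cause of the other changes was not tested. Depth limits RDM1 most, the least counted of the 37 genes.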

Other observations

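Further genes of replication fork protection and checkpoint control were read in U87 from the list of checkpoint genes, and were chosen here after their values were seen. TIMELESS, which with TIPIN holds the replication fork together, had 1133 and 1123 in LKB1 siRNA libraries of U87, against 2071 and 1787 in control libraries (log2 fold change -0.77, SE 0.13, adjusted p = 0.012). TIPIN had -0.62 (adjusted p = 0.0396), and CLSPN, which brings CHEK1 to ATR, had -1.05 (adjusted p = 0.0208). WEE1, the kinase that restrains CDK1, had 831 and 1070.1 in LKB1 siRNA libraries of U87, against 1791 and 2041 in control libraries (log2 fold change -1.02, SE 0.14, adjusted p = 0.00525). RAD1, a subunit of the checkpoint clamp, had -0.86 (adjusted p = 0.00674), while the other clamp subunits RAD9A and HUS1 had -0.29 and -0.05 and did not pass. In T98 these 7 genes did not pass, with log2 fold changes between -0.61 and 0.30.

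DMC1, the recombinase of meiosis, had 0.02 and 0.94 in LKB1 siRNA libraries of T98, against 0.03 and 4.80 in control libraries, and 27.2 and 67.3 in LKB1 siRNA libraries of U87, against 99.3 and 159 in control libraries. It was thus near 0 in T98, and its effect did not pass in U87 (log2 fold change -1.53, adjusted p = 0.0914).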
